A study of Mus musculus with 6 samples.

Results

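The suppressor of cytokine signaling (SOCS) family consists of 8 genes, *Socs1* to *Socs7* and *Cish*, and all 8 were found by gene name among the 29097 genes of the deposited table, with 1 row each. They were examined in PB neutrophils of wild type C57BL/6 male mice, 8 weeks old, that carried silk ligatures on the second molars of both jaws for 14 d (ligature-induced periodontitis, LIP) or stayed unligated over the same time (Ctrl). The sample labels call the ligated group Lig. CD45+CD11b+Ly6G+ cells were sorted from blood, the cells of 5 mice were pooled for each library, and 3 libraries per group were prepared by Smart-seq2, a method for small amounts of RNA that reads whole transcripts after PCR and attaches no molecular identifiers. The libraries held between 52186555 and 57262379 reads counted on genes. Because each library is a pool, the spread between libraries is that between pools, and single mice cannot be seen.

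SOCS proteins act as feedback brakes on the JAK-STAT pathway. A cytokine brings its receptor chains together, the JAK kinases bound to them phosphorylate the receptor and the STAT factors, and STAT dimers then turn on target genes, SOCS genes among them. The SOCS proteins bind phosphorylated receptors or JAKs through an SH2 domain, and their SOCS box recruits elongin B, elongin C and cullin 5 to mark the bound proteins for degradation. In neutrophils the family is best known through *Socs3*, which docks on the G-CSF receptor and limits granulocyte production. *Socs1* restrains interferon signaling, *Cish* and *Socs2* restrain signaling through STAT5 and the growth hormone receptor, and *Socs4* to *Socs7*, whose proteins carry a longer N-terminal part, are less studied in blood cells. The longest coding sequence was taken among transcripts that GENCODE annotates as protein-coding on GRCm38. It measured 636 bases for *Socs1*, 594 for *Socs2*, 675 for *Socs3* and 771 for *Cish*. Against these stood 1308 bases for *Socs4*, 1608 for *Socs5*, 1599 for *Socs6* and 1737 for *Socs7*.

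*Socs3* was the most abundant member in both groups and *Socs1* the second. With TMM scaling of the libraries *Socs3* rose in LIP, *Socs1* fell, and no difference passed the test for the other 6 genes. Relative to neutrophil markers *Socs3* was not called and the other 7 were called lower, as were 11321 of all 16402 genes in that fit. The promoters of *Socs3* and *Socs1* are shown because these were the 2 members called different, with capitals on the letters of the motifs searched for. The windows are those of RefSeq on GRCm38, read 5′ to 3′ on the strand of the gene, and run over the 250 bases before the annotated start. Such windows were given for 4 of the 8 members, *Cish*, *Socs1*, *Socs3* and *Socs4*. In *Socs3* (chr11:117969367-117969616, minus strand) the capitals mark the letters TTCNNNGAA, a spacing used by STAT dimers. In *Socs1* (chr16:10785537-10785786, minus strand) they mark GAAANNGAAA, a tandem repeat of the kind that interferon regulatory factors bind.
Socs3: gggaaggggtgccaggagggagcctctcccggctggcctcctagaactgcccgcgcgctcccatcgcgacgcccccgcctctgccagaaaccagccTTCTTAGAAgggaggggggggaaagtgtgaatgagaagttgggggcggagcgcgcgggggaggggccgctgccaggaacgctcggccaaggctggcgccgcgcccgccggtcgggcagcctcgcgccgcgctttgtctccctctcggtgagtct
Socs1: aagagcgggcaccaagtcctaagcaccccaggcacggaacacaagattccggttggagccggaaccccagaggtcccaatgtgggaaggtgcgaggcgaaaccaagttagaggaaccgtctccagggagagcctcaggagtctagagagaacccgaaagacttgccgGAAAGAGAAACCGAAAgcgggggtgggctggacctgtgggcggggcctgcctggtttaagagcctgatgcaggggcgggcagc

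The STAT-type letters of *Socs3* stood at -154 to -146 from the start, on chromosome 11 from 117969512 to 117969520, within an intron of a non-coding transcript of the same gene. TTCNNNGAA reads the same on both strands, and it was found in 8.30% of the 32851 windows of 300 bases that RefSeq gives for all genes (250 bases before the start and 50 after). The *Socs1* window held 2 overlapping matches to GAAANNGAAA, the first from -83 to -74 and the second from -77 to -68, with no annotated exon at that place. On either strand, GAAANNGAAA was present in 3.44% of all windows, and 2 or more matches were present in 0.225%. *Cish* carried 2 STAT-type matches just past its start, at 1 to 9 and 12 to 20, in the first exon of its transcript (chr9:107296659-107296678, plus strand), and 2 or more such matches were found in 0.457% of all windows.
Cish: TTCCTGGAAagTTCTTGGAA
The *Socs4* window held neither set of letters. These are matches of letters in short windows, and no binding was measured here.

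The levels of the members spanned a wide range, which is given here in FPKM, fragments scaled to gene length and library total, so that genes can be compared with each other. In Ctrl the order of mean levels was *Socs3* (48.4 ± 6.0 FPKM, SD, n = 3), *Socs1* (16.2 ± 0.931), *Socs4* (1.87 ± 0.285), *Socs6* (1.12 ± 0.394), *Socs5* (0.871 ± 0.223), *Socs7* (0.674 ± 0.226), *Cish* (0.668 ± 0.179) and *Socs2* (0.209 ± 0.108). *Socs3*, *Socs1* and *Socs4* were each separated from the next gene in all Ctrl libraries, whereas the ranges of *Socs6*, *Socs5*, *Socs7* and *Cish* overlapped from one neighbor to the next, and *Socs2* stood below *Cish* without overlap. In LIP the first 3 places were the same and also without overlap, with 138 ± 10.3 FPKM for *Socs3*, 8.94 ± 1.28 for *Socs1* and 1.60 ± 0.512 for *Socs4* (SD, n = 3 each). The other 5 genes lay between 0.0857 and 0.977 FPKM in the LIP libraries, and each overlapped its neighbor in the order *Socs6*, *Cish*, *Socs7*, *Socs5*, *Socs2*.

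**Figure D1:**
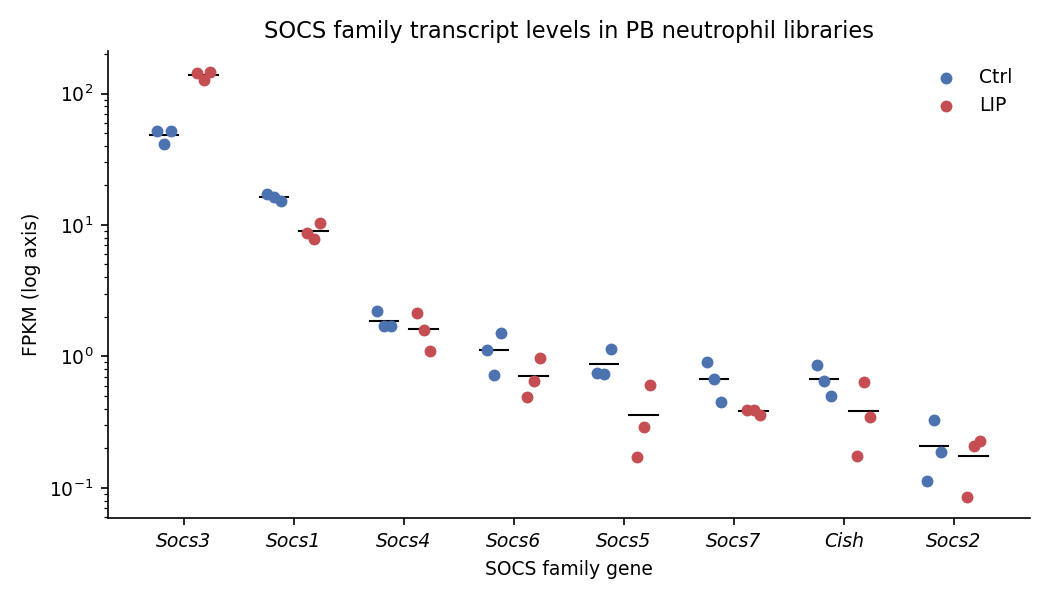
FPKM of the 8 SOCS family genes in each of the 3 Ctrl and 3 LIP libraries (points, vertical log axis), with the group mean as a black line. The 3 LIP points of *Socs3* lie between 126 and 146 FPKM, above all Ctrl points (41.5 to 52.2), and those of *Socs1* lie between 7.83 and 10.4, below all Ctrl points (15.2 to 17.1).

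The first comparison asked which members differ between LIP and Ctrl neutrophils. *Socs3* (ENSMUSG00000053113, chromosome 11 from 117966079 to 117970047, minus strand) had 52.2, 41.5 and 51.6 FPKM in Ctrl replicates 1, 2 and 3 and 142, 126 and 146 FPKM in LIP. These values rest on 8666, 7079 and 8457 reads in Ctrl and 24907, 22301 and 23812 reads in LIP. Every LIP library was higher than every Ctrl library. In CPM, reads per library total after TMM normalization, *Socs3* measured 136 ± 15.1 with no ligature and 479 ± 36.5 with LIP (SD, n = 3 each), a 3.53-fold rise. Its log2 fold change was 1.82 (SE 0.117, 95% interval 1.56 to 2.08, adjusted p = 8.54e-07 by edgeR's quasi-likelihood test with Benjamini-Hochberg adjustment over 10440 genes). In bulk RNA of a sorted population, a difference in the number of cells of a type and a difference in RNA per cell cannot be told apart.

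*Socs1* (ENSMUSG00000038037, chromosome 16 from 10782240 to 10785536, minus strand) moved the other way. Its level was 17.1, 16.3 and 15.2 FPKM in the Ctrl libraries, from 2851, 2794 and 2513 reads, and 8.65, 7.83 and 10.4 FPKM in the LIP libraries, from 1527, 1391 and 1701 reads. The groups did not overlap, and LIP replicate 3 was the LIP library closest to Ctrl. After TMM scaling *Socs1* stood at 45.7 ± 2.30 CPM in Ctrl against 31.2 ± 4.44 CPM in LIP (SD, n = 3 each), which is 1.46-fold lower. The log2 fold change was -0.55 (SE 0.160, 95% interval -0.90 to -0.19, edgeR adjusted p = 0.0149). Without LIP replicate 2 the log2 fold change was -0.46 and the call was lost (edgeR adjusted p = 0.0583).

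*Socs4* (ENSMUSG00000048379, chromosome 14), the third member tested at a mean FPKM of at least 1, had 2.20, 1.72 and 1.70 FPKM in Ctrl and 2.12, 1.59 and 1.10 in LIP. The groups overlapped, with 1 LIP library inside the Ctrl range in FPKM and the others below it, and the log2 fold change did not pass the test (0.09, SE 0.286, 95% interval -0.55 to 0.72, edgeR adjusted p = 0.809). Thus 1 of the 3 members tested at this filter was called higher, beside 26.5% of all 10440 genes tested, and 1 was called lower, beside 27.2%. A count of 1 in each direction is near the background.

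The 5 remaining members had a mean FPKM under 1 and were read from a fit on the 16402 genes that edgeR's filterByExpr keeps, which kept all 8 members. In that fit the same single calls were made: *Socs3* was higher (16.8% of all genes were called higher) and *Socs1* was lower (log2 fold change -0.51, edgeR adjusted p = 0.0314, beside 16.4% of all genes called lower). That call of *Socs1* was lost in 5 of the 6 fits that each leave out 1 library (all but that without LIP replicate 3), with edgeR adjusted p up to 0.0941. CPM values of the groups did not overlap for *Socs3* and *Socs1* alone among the 8 members, while the groups did not overlap for 51.8% of the 16402 genes.

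Among the low members, *Socs5*, which has been linked to control of growth factor receptors, had the largest point estimate. Its level was 0.749, 0.736 and 1.13 FPKM in Ctrl and 0.173, 0.292 and 0.609 FPKM in LIP, from 276, 280 and 412 reads and 68, 116 and 221 reads. In FPKM the groups did not overlap, but after TMM scaling LIP replicate 3 (4.68 CPM) lay within the Ctrl range of 4.58 to 7.06 CPM. The log2 fold change was -0.93 with a wide interval (-2.11 to 0.24, edgeR adjusted p = 0.209). Without LIP replicate 3 it was -1.54 and passed the test (edgeR adjusted p = 0.0474), so the outcome for *Socs5* rests on that library.

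*Socs6* and *Socs7*, both linked to control of receptor kinase and insulin signaling, were low in both groups. *Socs6* had 1.13, 0.725 and 1.51 FPKM in Ctrl and 0.492, 0.646 and 0.977 FPKM in LIP, which overlap (log2 fold change -0.32, 95% interval -1.13 to 0.49, edgeR adjusted p = 0.547). *Socs7* had 0.898, 0.677 and 0.447 FPKM in Ctrl, a spread much wider than in LIP, where the libraries had 0.393, 0.391 and 0.360 FPKM. In FPKM the groups did not overlap for *Socs7*, but after TMM scaling they did. The log2 fold change of *Socs7* was -0.47 (95% interval -1.34 to 0.40, edgeR adjusted p = 0.398).

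*Cish*, the feedback gene of STAT5, had 0.857, 0.646 and 0.501 FPKM in Ctrl and 0.175, 0.633 and 0.348 FPKM in LIP. LIP replicate 2 lay inside the Ctrl range and LIP replicate 1 far below it, and the log2 fold change was -0.44 (95% interval -1.64 to 0.76, edgeR adjusted p = 0.579). *Socs2*, which limits growth hormone signaling, was the lowest member, with 0.113, 0.325 and 0.189 FPKM in Ctrl and 0.0857, 0.209 and 0.226 FPKM in LIP. Its log2 fold change was 0.06, and the interval from -1.40 to 1.52 leaves differences of either direction within reach. For these low members the data do not show that the groups are alike.

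The spread between libraries was far above the counting error of single libraries for most of the low members. The CPM of *Socs5* had a coefficient of variation of 62.0% over the LIP libraries, where counting alone would give 8.61% in a library, and that of *Cish* was 59.3% against 8.20%. *Socs2* varied by 51.6% in Ctrl and 43.9% in LIP, against 9.23% and 10.1% from counting. *Socs3*, with at least 7079 reads in each library, varied by 11.2% in Ctrl and 7.62% in LIP, and *Socs1* by 5.04% and 14.2%. The exception was *Socs7* in LIP, where 5.49% was below the 7.72% from counting. Smart-seq2 reads include PCR copies, so counting error is a lower limit of the technical error.

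**Figure D2:**
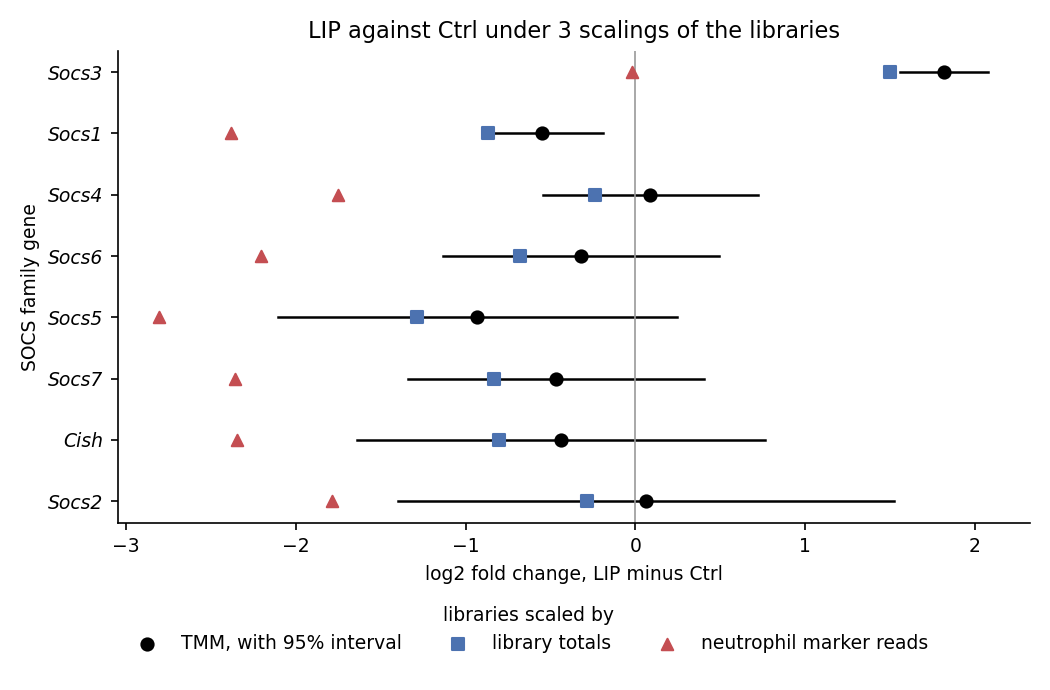
Log2 fold change of each SOCS family gene, LIP minus Ctrl, with libraries scaled by TMM (black points, bars are 95% intervals), by library totals (squares) and by the reads of the neutrophil markers (triangles). *Socs3* lies at 1.82, 1.5 and -0.0205 under the 3 scalings, and *Socs1* at -0.55, -0.87 and -2.38.

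The scaling of the libraries bears on each of these values. TMM assumes that most genes keep their level, and its factors were 1.14, 1.10 and 1.12 for the Ctrl libraries and 0.889, 0.890 and 0.905 for the LIP libraries. Over the 10440 genes the median log2 fold change was -0.095 with TMM, -0.42 with library totals and -1.93 with scaling on the summed reads of 20 neutrophil markers. The genes called higher and lower numbered 2766 and 2835 with TMM, 1919 and 4146 with library totals, and 52 and 9244 with the neutrophil markers. *Socs3* was called higher with TMM and with library totals (log2 fold change 1.5, edgeR adjusted p = 5.79e-06), while its difference relative to the neutrophil markers did not pass the test (-0.0205, edgeR adjusted p = 0.895). *Socs1* was called lower under all 3, by 0.87 on the log2 scale with library totals and by 2.38 relative to the neutrophil markers. In the filterByExpr fit with this last scaling, 7 of the 8 members were called lower, all but *Socs3*, beside 11321 of all 16402 genes. A change of scaling shifts all genes by about the same amount, so the distance of a gene from the median of all genes says nothing of the choice between scalings.

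Markers of the sorted cells and of other blood cells moved between the groups, as the plot of marker lists shows. All 20 neutrophil markers rose, with a median log2 fold change of 1.85, and their reads made up 2.16 to 2.38% of a library in Ctrl and 6.33 to 6.72% in LIP. The most abundant was *S100a9*, a calcium-binding protein of the neutrophil cytosol (log2 fold change 2.03). *Socs3* moved about as far as the median of these markers: 12 of the 20 had a larger log2 fold change and 8 a smaller one. All 15 B cell markers fell (median -2.56, from 1.16 to 1.27% of reads in Ctrl to 0.191 to 0.209% in LIP), led in abundance by *Igkc*, the immunoglobulin kappa constant gene (-2.56). All 17 T cell markers fell (median -2.36, from 0.123 to 0.13% to 0.0210 to 0.0246%), of which *Trbc2*, a T cell receptor constant gene, was the most abundant (-2.50). All 10 erythroid markers tested fell (median -2.96, from 14.8 to 15.3% to 1.57 to 1.63%), with the globin gene *Hba-a1* at -2.80. The point estimate of *Socs1* was a smaller fall than that of 14 of the 15 B cell markers, of all 17 T cell markers and of all 10 erythroid markers.

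Platelet markers rose as a list, 9 of 9 with a median of 1.23 and *Ppbp* at 1.23, and 8 of 10 monocyte markers rose, with a median of 0.97 and *Nr4a1* at 0.57. NK cell markers rose in 4 of 10 cases with TMM, but 0 rose and 1 fell with library totals, and their most abundant gene *Nkg7* did not pass the test (-0.15, edgeR adjusted p = 0.265). Of 7 eosinophil and basophil markers tested, 2 rose and 1 fell, with *Siglecf* at 1.44. With TMM, the shares of these last lists called higher are to be read beside the 26.5% of all genes. Relative to the neutrophil markers 0 genes of these 4 lists rose, and 8 platelet, 8 monocyte, 10 NK cell and 4 eosinophil and basophil markers fell. With that scaling 52 of all 10440 genes were called higher and 9244 lower. The summed reads of these lists lay between 0.118 and 0.287% of a library for platelets, between 0.165 and 0.257% for monocytes, between 0.0658 and 0.0812% for NK cells and between 0.00395 and 0.00701% for eosinophils and basophils. In no list was a marker at 0 reads in all libraries of a group. *Csf3r* counts here both as a receptor and as a neutrophil marker, and *Il5ra* both as a receptor and as an eosinophil marker. The part of these other cells in the values of *Socs1*, *Socs3* and the pathway genes was not tested.

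**Figure D3:**
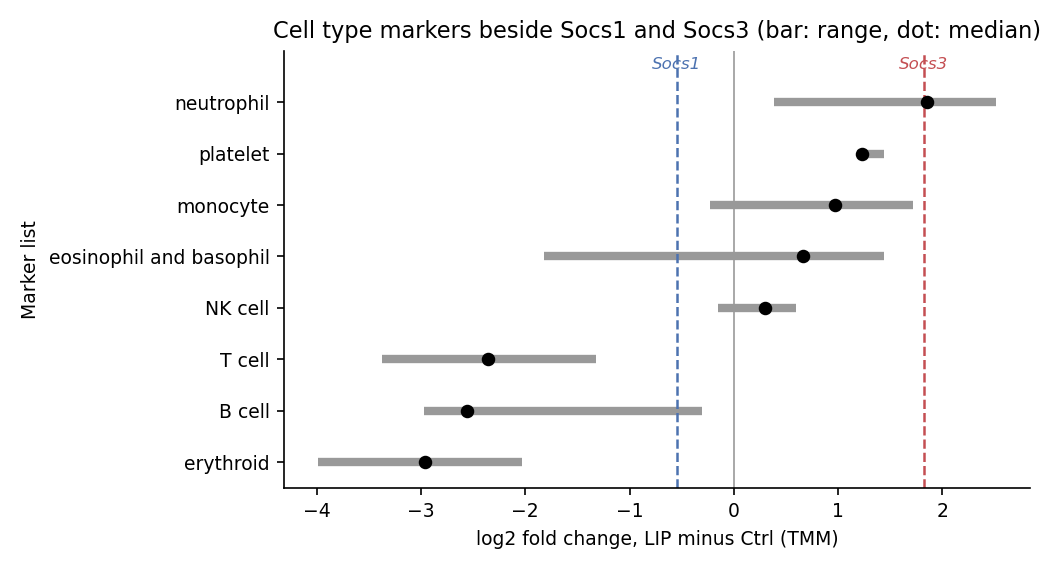
Log2 fold changes, LIP minus Ctrl, of 8 lists of cell type markers (gray bar, lowest to highest gene tested in the list; black dot, median), with *Socs1* and *Socs3* as dashed lines. *Socs3* at 1.82 lies beside the neutrophil median of 1.85, and *Socs1* at -0.55 lies between the NK cell median of 0.30 and the T cell median of -2.36.

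The share of each member in the family within a library does not depend on how libraries are scaled, unlike the summed FPKM, which is scaled to the library total. Summed over the 8 genes, FPKM came to 70.1 ± 6.60 for Ctrl and 151 ± 11.3 for LIP (SD, n = 3 each), with Ctrl libraries between 62.6 and 75.3 and LIP libraries between 138 and 160. *Socs3* made up 69.4, 66.3 and 71.4% of that sum in Ctrl and 92.2, 91.6 and 91.3% in LIP. Its share was 22.7 percentage points higher in LIP, at 91.7% ± 0.453 against 69.0% ± 2.55 (SD, n = 3 each). *Socs1* made up 22.7, 26.0 and 21.1% in Ctrl and 5.61, 5.68 and 6.48% in LIP, a difference of -17.3 percentage points. The shares of both did not overlap between groups. With 3 libraries against 3, the two-sided exact permutation test cannot give less than p = 0.10, and this was reached by every member except *Socs2* (exact p = 0.20), with 0.114 after Benjamini-Hochberg adjustment over the 8 members. The 6 other members together held small shares, each between 0.0556 and 2.92% of the sum, and since shares add up to the whole, the higher share of *Socs3* lowers those of the others.

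**Figure D4:**
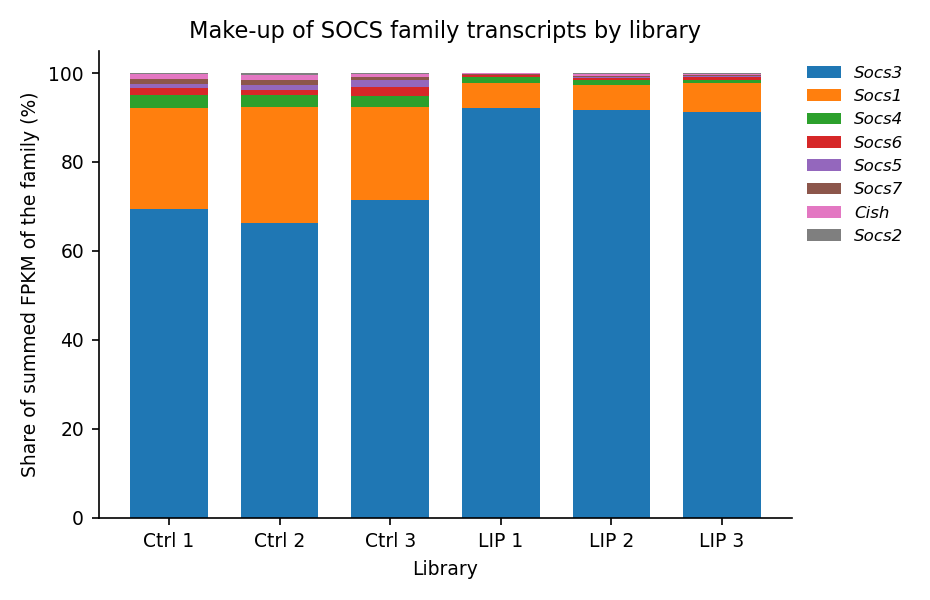
Share of each SOCS family gene in the summed FPKM of the family (stacked bars, percent) in the 3 Ctrl and 3 LIP libraries. *Socs3* fills 66.3 to 71.4% of the bar in Ctrl and 91.3 to 92.2% in LIP, and *Socs1* 21.1 to 26.0% and 5.61 to 6.48%.

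Expressed as a ratio, there were 2.98 *Socs3* FPKM per *Socs1* FPKM in Ctrl and 15.5 in LIP (geometric means). The log2 ratio was 1.61, 1.35 and 1.76 in Ctrl and 4.04, 4.01 and 3.82 in LIP, a difference of 2.38 (two-sided exact permutation p = 0.10, the smallest possible). This ratio was chosen after the values of both genes had been seen. *Csf3r*, the G-CSF receptor on which SOCS3 docks, had 402, 257 and 387 FPKM in Ctrl and 1023, 1010 and 985 FPKM in LIP, with a log2 fold change of 1.84 beside the 1.82 of *Socs3*. The log2 ratio of *Socs3* to *Csf3r* was -2.95, -2.63 and -2.91 in Ctrl and -2.85, -3.0 and -2.76 in LIP. The means were -2.83 ± 0.172 and -2.87 ± 0.122 (SD, n = 3 each), a difference of -0.04 with a two-sided exact permutation p of 0.80. As a plain ratio there were 0.141 *Socs3* FPKM per *Csf3r* FPKM in Ctrl and 0.137 in LIP, and the groups overlapped.

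Genes with a profile most like that of a member over the 6 libraries were sought among the 10440 genes tested, by the root mean square difference of log2 CPM after centering each gene on its mean. The closest to *Socs3* were *Stx11* (0.0314), *Mmp9* (0.0428) and *Snx18* (0.0578), with log2 fold changes of 1.85, 1.84 and 1.73. *Mmp9* is on the list of neutrophil markers. *Anxa6* (0.0474), *Itpripl1* (0.0491) and *Pcna* (0.0561) were closest to *Socs1*, with log2 fold changes of -0.51, -0.53 and -0.58. The nearest to *Socs4* were *Med14* (0.0777), *Map3k2* (0.0979) and *Haghl* (0.101). With 6 libraries in 2 groups, such likeness is given as a description only.

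The next comparison placed the family beside the pathway it controls, with lists of receptors, kinases, factors, targets and other inhibitors. Counts with TMM in each list are to be read against the 26.5% of the 10440 genes tested that were called higher and the 27.2% called lower. Medians, all with TMM, are to be read against the median of all genes, -0.095. Counts with library totals stand beside 1919 genes called higher and 4146 lower, and those relative to the neutrophil markers beside 52 and 9244. Each list is described by counts and medians only, without a test of the list.

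Receptor chains of the interferon and IL-10 group, whose signals SOCS1 restrains, were called higher in 7 of 7 cases (median log2 fold change 0.97), in 4 of 7 with library totals, and in 0 of 7 with scaling on the neutrophil markers, where 6 were called lower. The most abundant was *Ifngr1*, a chain of the IFN-γ receptor, at 97.7 to 102 FPKM in the Ctrl libraries and 93.9 to 107 in the LIP libraries, which overlap before TMM scaling (log2 fold change 0.33, edgeR adjusted p = 0.0142). The largest difference was in *Ifnlr1*, a chain of the receptor for type III interferon (0.874 ± 0.188 and 2.97 ± 1.08 FPKM, log2 fold change 2.07). Among the gp130 and G-CSF type chains, where SOCS3 acts, 5 of 10 listed genes were tested, of which 2 rose and 2 fell, while relative to the neutrophil markers none rose and 4 fell. *Csf3r* rose most, from 349 ± 79.8 to 1006 ± 19.7 FPKM (SD, n = 3 each). *Il27ra*, a receptor chain for IL-27, fell most, from 11.4 ± 1.61 to 1.16 ± 0.526 FPKM (log2 fold change -2.97, edgeR adjusted p = 4.09e-05).

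The chains of the common beta, common gamma and homodimeric receptors, which signal largely through STAT5, divided: 7 of 12 tested rose and 4 fell (median 1.25), and relative to the neutrophil markers 0 rose and 7 fell. *Csf2rb2*, a beta chain of the IL-3 receptor, rose from 1.64 ± 0.710 to 6.01 ± 1.11 FPKM (log2 fold change 2.19, edgeR adjusted p = 0.000323). *Csf2rb2* is a close copy of *Csf2rb*, so its reads may be shared with that gene and its value is uncertain. *Il2rg*, the common gamma chain of lymphocyte cytokine receptors, fell from 243 ± 24.9 to 73.5 ± 3.15 FPKM (log2 fold change -1.42). It had the highest mean FPKM of the list over the 6 libraries, but not in LIP alone. *Il7r*, the IL-7 receptor chain of lymphocytes, fell most (-2.74), from 19.1 ± 3.49 to 2.30 ± 0.171 FPKM (SD, n = 3 each).

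Of the 4 JAK kinases, 1 passed the test. *Jak1* had 77.4 ± 19.7 FPKM in Ctrl and 88.1 ± 7.92 in LIP and was called higher (log2 fold change 0.50, edgeR adjusted p = 0.0192), a call that library totals did not give. *Jak2* (0.43), *Jak3* (0.58) and *Tyk2* (0.25) did not pass the test, with adjusted p of 0.117, 0.0713 and 0.453 from edgeR. Relative to the neutrophil markers all 4 kinases were called lower. Of the 7 STAT factors, 4 rose and 0 fell (median 0.52), whereas with library totals 3 rose and 1 fell, and relative to the neutrophil markers all 7 fell. *Stat3*, the factor that acts below the G-CSF receptor and on the *Socs3* gene, rose most, from 39.2 ± 6.33 to 80.0 ± 1.00 FPKM (log2 fold change 1.34, SE 0.112, edgeR adjusted p = 4.58e-06). *Stat6*, the factor of IL-4 signaling and the most abundant STAT, had 52.9 ± 14.0 and 81.7 ± 6.18 FPKM (log2 fold change 0.94).

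Target genes of STAT3 rose in 9 of 9 cases with TMM and with library totals (median 1.40 with TMM), while relative to the neutrophil markers 0 rose and 8 fell. *Junb*, an AP-1 subunit, was the most abundant at 2933 ± 118 FPKM in Ctrl and 4551 ± 136 in LIP (log2 fold change 0.94). *Cebpd*, a transcription factor of the acute phase response, rose most, from 46.1 ± 2.08 to 133 ± 2.27 FPKM. Its log2 fold change was 1.83. Among 6 tested targets of STAT5, 5 rose and 1 fell (median 1.44), and relative to the neutrophil markers 1 rose and 4 fell. The survival gene *Mcl1*, which is also on the STAT3 list, was at 356 ± 20.5 and 755 ± 34.9 FPKM (log2 fold change 1.39). *Id1*, an inhibitor of helix-loop-helix factors, had the largest difference (2.22), and *Ccnd2*, cyclin D2, fell (-0.49, edgeR adjusted p = 0.0152). *Cish*, itself a STAT5 target, did not pass the test, and no test of its difference from these genes was made.

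**Figure D5:**
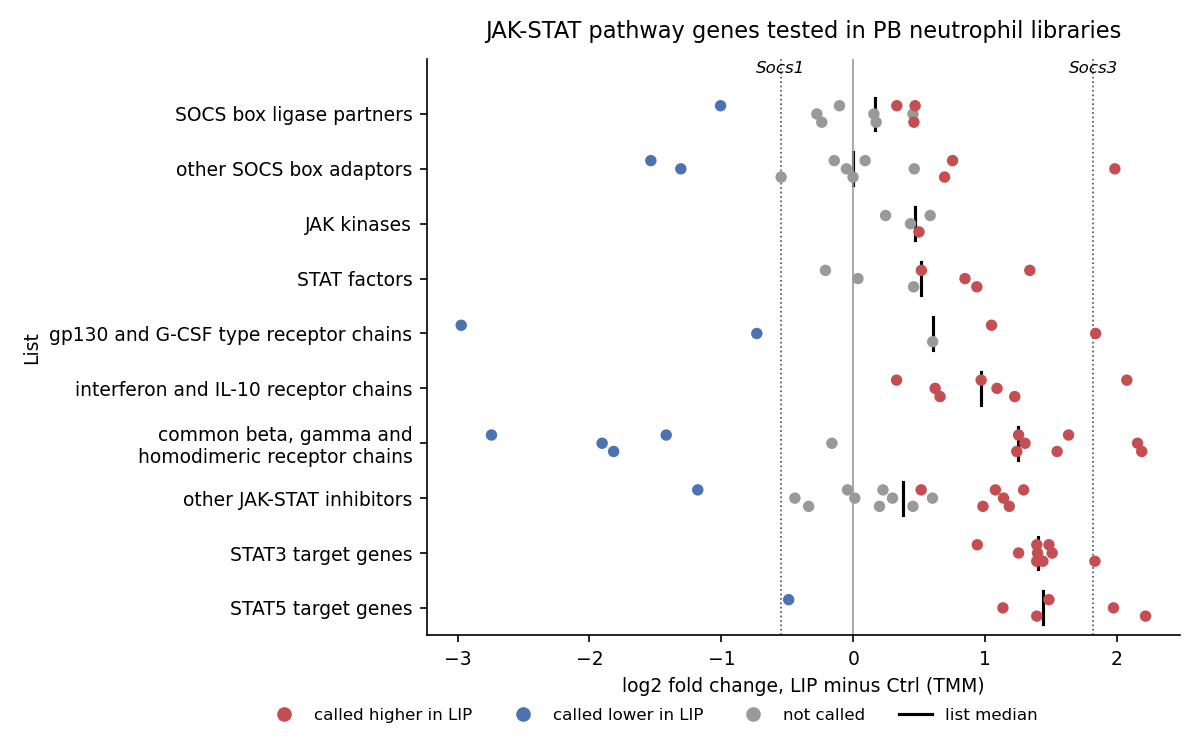
Log2 fold changes, LIP minus Ctrl with TMM, of the tested genes in 10 pathway lists (1 point per gene, red for called higher, blue for called lower, gray for not called; black line, list median), with *Socs1* and *Socs3* as dotted lines. The STAT3 targets lie between 0.94 and 1.83, and the SOCS box ligase partners between -1.01 and 0.47.

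The partners through which the SOCS box acts had log2 fold changes between -1.01 and 0.47. Of 10 genes for the ligase, 3 were called higher and 1 lower with TMM (median 0.17), but 0 and 3 with library totals and 0 and 10 relative to the neutrophil markers. *Elob*, elongin B, had 86.5 ± 7.02 FPKM in Ctrl and 87.9 ± 3.65 in LIP (log2 fold change 0.33, edgeR adjusted p = 0.0296). *Eloc*, elongin C, had 13.9 ± 1.07 and 15.6 ± 1.40 FPKM (0.47, edgeR adjusted p = 0.0176). *Cul5*, the cullin scaffold, was 3.07, 2.91 and 3.0 FPKM in Ctrl and 1.53, 1.12 and 0.955 FPKM in LIP, and fell without overlap (log2 fold change -1.01, SE 0.233, edgeR adjusted p = 0.0044).

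Among other SOCS box adaptors, which carry the same box on other binding domains, 11 of 26 listed genes were tested, of which 3 rose and 2 fell (median -0.00), against 2 and 3 with library totals and 0 and 10 relative to the neutrophil markers. *Wsb1*, a WD repeat adaptor and the most abundant, rose from 28.2 ± 5.45 to 38.4 ± 2.62 FPKM (log2 fold change 0.75). The ankyrin repeat adaptors *Asb7* and *Asb5* had the largest and smallest values, 1.98 and -1.53. Other inhibitors of the pathway, such as phosphatases, PIAS proteins and adaptor proteins, counted 6 higher and 1 lower of 16 tested (median 0.38), with 5 and 3 under library totals and 0 and 16 relative to the neutrophil markers. *Ptpn6*, the phosphatase SHP-1, was the most abundant at 229 ± 10.2 and 264 ± 4.75 FPKM (log2 fold change 0.51). *Ptpn1*, the phosphatase PTP1B that acts on JAK2 and TYK2, rose most, from 67.1 ± 5.58 to 133 ± 4.74 FPKM (1.29), and *Cblb*, a ubiquitin ligase, fell (-1.18). *Socs3*, at 1.82, had a larger log2 fold change than each of these 16 inhibitors, whose range was -1.18 to 1.29, and no test of that difference was made.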

How the data were processed

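Sorted PB neutrophils of Ctrl and LIP mice were analysed in 3 Smart-seq2 libraries each. The authors deposited read counts per gene, not normalized, and FPKM values computed from gene length and library total. Per the labels, reads were trimmed with cutadapt 1.9, checked with FastQC and assigned on GRCm38. The aligner, the counting tool and the use of strand are not given in the sources used here. Library totals lay between 52186555 and 57262379 reads.

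Counts were tested with edgeR 4.0.16 (R 4.3.3), quasi-likelihood, TMM factors, no block, on 10440 genes (mean FPKM over the 6 libraries not under 1), with Benjamini-Hochberg adjustment and a threshold of 0.05. The study states no fit for these libraries. The 5 members with a mean FPKM under 1 were read from the same test on the 16402 genes kept by filterByExpr. No listed pathway gene or marker overlapped a member. Intervals use the t distribution (scipy 1.17.1) with the quasi-likelihood degrees of freedom. Shares and ratios of FPKM were compared by two-sided exact permutation tests. The edgeR fit was tested on simulated counts in which few genes changed, so that test does not bear on the choice of scaling. Chi-square per gene between libraries of one group was 51.9 to 126, above sampling noise, so no library was a copy of another. Since libraries are pools of 5 mice, p-values measure the spread between pools. Alternatives were other scalings and filters, DESeq2 1.42.0, limma 3.58.1 on log2(FPKM + 1) and log2(FPKM + 0.1), a replicate block, and each library left out in turn.

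The members, the gene lists and the tests were chosen with earlier results of these data known. Named are all members, *Csf3r*, from each pathway list the most abundant gene and those called with the largest and smallest log2 fold change (all 4 JAK kinases), the most abundant marker of each list, and the 3 genes closest in profile to each member tested. Promoter windows were taken from RefSeq on GRCm38.p6. Some results for single genes and 1 pathway list are not reported here.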

Additional observations from a re-analysis of the deposited data

How the results depend on the processing

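*Socs3* kept its direction and its call in every alternative run except scaling on the neutrophil markers, where its log2 fold change was -0.0205. There 0 members were called higher and 2 of the 3 members tested (*Socs1* and *Socs4*) were called lower, beside 9244 of the 10440 genes. In the filterByExpr fit of all 8 members, this scaling called 7 lower, beside 11321 of the 16402 genes. *Socs1* was called lower in every alternative to the 10440-gene test except without LIP replicate 2, so that leaving out 1 library gave 0 to 1 members called lower. In the filterByExpr fit its call was lost in 5 of 6 such fits and with the replicate block (edgeR adjusted p = 0.0561).

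Members near no difference changed sign. *Socs4* was at -0.24 with library totals, -1.76 with the neutrophil markers, and -0.16 and -0.25 with limma on log2(FPKM + 1) and log2(FPKM + 0.1), and between -0.17 and 0.30 without 1 library. *Socs2* was at -0.29 with library totals, -1.79 with the neutrophil markers, and between -0.24 and 0.55 without 1 library. The alternatives for members with a mean FPKM under 1 were added after seeing the data. The *Socs3* share was 27.2 percentage points higher in LIP when taken from counts without length correction. The cause was not tested beyond the scaling itself.

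Replicate numbers are shared by both groups through the labels alone, and the deviations of same-numbered libraries correlated by -0.013, 0.043 and 0.023. With the replicate block, 2724 genes were higher and 2822 lower, *Socs3* was at 1.82 and *Socs1* at -0.56 (edgeR adjusted p = 0.0221), and no other call of a member changed in the 10440-gene test. Scaling on the neutrophil markers moved the count called higher by over 1.5 times in every pathway list, as from 9 to 0 for the STAT3 targets. Under the other alternatives, counts moved by over 1.5 times mainly where few genes were called. The JAK kinases called higher numbered 1 with TMM, 2 with median-of-ratios factors, 3 with DESeq2, the replicate block or without Ctrl replicate 1, and 0 with library totals, the neutrophil markers, no filter, a mean FPKM of at least 5, limma or without Ctrl replicate 3 or LIP replicate 3. For the SOCS box ligase partners called higher, 3 became 1 with no filter or without Ctrl replicate 3 or LIP replicate 3, and 0 with library totals, the neutrophil markers, a mean FPKM of at least 5, limma or without LIP replicate 2, and for interferon and IL-10 receptor chains 7 became 4 with library totals or limma and 0 with the neutrophil markers. The gp130 and G-CSF type chains called lower numbered 4 with the neutrophil markers and otherwise 2 or 1. limma on log2(FPKM + 1) called 2010 genes higher and 4249 lower.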
